A study of Mus musculus with 93 samples.

Results

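Hepatic stellate cells, the vitamin A storing pericytes of the liver sinusoid, were followed here through 10 genes in whole-liver mRNA. The 10 rows of the count table, out of 53465 genes, were those whose Ensembl identifier belongs to Acta2, Tagln, Des, Pdgfra, Pdgfrb, Pdgfa, and Pdgfb, grouped as activation genes, and to Lrat, Reln, and Hgf, grouped as quiescence genes. In a healthy liver stellate cells esterify retinol through LRAT, secrete reelin and HGF, and contract little. On injury they lose retinyl esters, take on smooth muscle actin and other contractile proteins, and proliferate in response to PDGF, whose B chain signals mainly through PDGFRβ and whose A chain signals through PDGFRα. PDGF chains are also made by endothelial cells, macrophages, and platelets, and ACTA2, TAGLN, and DES also mark vascular smooth muscle. None of these genes therefore reads 1 cell type, and the cell types behind the other genes of the 10 were not tested.

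Liver RNA of 93 male inbred mice was sequenced to ask how genetic background shapes the response of the liver to diet. The strains were C57BL/6J, DBA/2J, A/J, and 129S1/SvImJ, which are domesticated, and WSB/EiJ, CAST/EiJ, and PWK/PhJ, which are wild-derived. All 14 groups shared housing at 30°C, thermoneutrality, from 6 weeks of age and a diet from 7 weeks of age for 17 weeks, and were killed at 24 weeks after a fast of 4 h. The western diet (WD) drew 40% of its energy from fat, 17% from protein, and 43% from carbohydrates, and the control diet (CD) 10%, 17%, and 73%. The CD groups held 8 C57BL/6J, 6 DBA/2J, 5 A/J, 7 129S1/SvImJ, 6 WSB/EiJ, 7 CAST/EiJ, and 6 PWK/PhJ mice, and the WD groups 8, 7, 6, 6, 6, 8, and 7 in the same order. Mice of a strain came from 2 or 3 cohorts, as the labels call them, and every strain had both diets in at least 2 of its cohorts.

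Between 40020424 and 49894856 reads per mouse lay on genes. The median share of reads that did not map ran from 2.20% in A/J to 12.5% in CAST/EiJ against the C57BL/6J genome, so comparisons of levels between strains include this difference in mapping. In PWK/PhJ the share was 2.22 to 4.23% in the 6 CD mice and 5.48 to 8.73% in the 7 WD mice, without overlap, and its part in the WD against CD results of this strain was not tested. In the other 6 strains the shares of the 2 diets overlapped. All 10 genes passed the filter on low counts. Of 14 other stellate cell markers, all were detected and tested, and their summed level was 242 to 634 CPM, which are read counts scaled to the TMM-adjusted library size, in the 91 mice outside the 2 named next. In the second C57BL/6J mouse on CD the 8 portal fibroblast markers summed to 98.5 CPM and the 6 cholangiocyte markers to 96.1 CPM, and in the third C57BL/6J mouse on WD to 92.8 and 67.5 CPM. In the other 91 mice these sums stayed between 7.78 and 41.6 CPM and between 4.91 and 32.9 CPM. These 2 mice had the 2 highest Pdgfra and Pdgfrb levels of the series, so C57BL/6J results are given with and without them. The sixth CAST/EiJ mouse on CD had 47.7 CPM of vascular smooth muscle markers, the highest sum of the series, and the fifth PWK/PhJ mouse on CD had 45.4 CPM of macrophage markers, the lowest. Whole-liver RNA cannot tell fewer cells of a type from less RNA per cell.

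Of the 10 genes 4 lie on chromosome 5 of GRCm38. These are Pdgfra at chr5:75152292-75198215, Pdgfa at chr5:138976014-138997370, Reln at chr5:21884454-22344702, and Hgf at chr5:16553495-16620152. Acta2 lies at chr19:34241090-34255590, Tagln at chr9:45929619-45936058, Des at chr1:75360329-75368579, Pdgfb at chr15:79995874-80014977, and Lrat at chr3:82892579-82903973. All 10 are protein-coding. Gene counts of this kind take reads over annotated exons, UTRs included, but the annotation release behind them is not known here. Where counting does not use strand, reads over exons shared by genes on opposite strands cannot be told apart and may be set aside as ambiguous. Whether strand was used is not known here. The antisense gene Gm48529 covers 62.4% of the exon bases of Tagln and had 20 to 89 counts per mouse, and 6330403L08Rik covers 26.1% of those of Pdgfa with 27 to 193 counts.

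RefSeq entries of GRCm38.p6 gave the 250 bases upstream of the start for 7 of the 10 genes. Tagln, Pdgfrb, and Pdgfb had no window. The windows of Reln, Hgf, and Pdgfra are shown because Hgf mRNA varied together with that of Reln and with that of Pdgfra between mice of a group. Capitals mark the GC box (GGGCGG or CCGCCC), 1 of the 2 motifs searched, and the other, a CArG-like box of serum response factor with CC and GG around 6 bases of which at most 1 is G or C, was in none of the 3. The letters are those of the C57BL/6J reference, read 5′ to 3′ in the sense of the gene, and other strains can differ from them.
Reln, chr5:22344706-22344955, minus strand: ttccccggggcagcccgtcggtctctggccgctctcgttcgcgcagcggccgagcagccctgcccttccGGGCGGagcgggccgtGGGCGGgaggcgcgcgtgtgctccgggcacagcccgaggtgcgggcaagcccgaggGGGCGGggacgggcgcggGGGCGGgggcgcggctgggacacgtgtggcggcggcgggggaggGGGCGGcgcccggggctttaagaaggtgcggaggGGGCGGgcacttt
Hgf, chr5:16553245-16553494, plus strand: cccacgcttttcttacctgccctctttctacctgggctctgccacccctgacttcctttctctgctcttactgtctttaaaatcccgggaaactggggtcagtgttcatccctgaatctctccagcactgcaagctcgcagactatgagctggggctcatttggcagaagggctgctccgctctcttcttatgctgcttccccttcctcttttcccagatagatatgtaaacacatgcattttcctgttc
Pdgfra, chr5:75152001-75152250, plus strand: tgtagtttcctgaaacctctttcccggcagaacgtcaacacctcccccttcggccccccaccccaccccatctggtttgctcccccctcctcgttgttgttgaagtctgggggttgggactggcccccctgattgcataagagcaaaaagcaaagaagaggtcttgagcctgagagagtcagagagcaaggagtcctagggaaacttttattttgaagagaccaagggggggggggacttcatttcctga
Reln held 6 GC boxes and the other 2 windows none, so the 3 did not share this motif, which 32.7% of all 32851 windows of that length held on either strand. Of the 4 windows not shown, those of Des and Pdgfa held 2 and 2 GC boxes and that of Lrat 1. CArG-like boxes numbered 2 in Acta2, a textbook target gene of serum response factor, and 1 in Lrat, and 8.59% of all windows held at least 1. The Acta2 and Pdgfa windows overlap annotated exons of these genes.

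Per length of exon, with all annotated exons of a gene joined, Lrat, the retinol esterifying enzyme, had the highest median level of the 10. It was 3.37 RPKM (reads per kb of exon, scaled as CPM) over the 93 mice. Acta2, which encodes smooth muscle α-actin, and Pdgfa followed at 3.07 and 3.05 RPKM. Reln, which encodes the secreted glycoprotein reelin, was at 2.87 RPKM over 23738 exon bases. In CPM its median, 68.2, was above that of Lrat, 18.1 over 5351 bases, so their order depends on the length used. Pdgfrb, the receptor of the B chain, was at 2.13 RPKM. Lower median levels were those of Hgf, the hepatocyte growth factor that stellate cells secrete (1.56 RPKM), Des, the muscle intermediate filament desmin (1.43 RPKM), Pdgfra (0.872 RPKM), and Pdgfb (0.539 RPKM). Tagln, the actin-binding SM22α, was lowest at 0.168 RPKM, with 4 to 34 counts per mouse. Its counts are uncertain, since reads over the 62.4% of its exon bases shared with Gm48529 may have been set aside as ambiguous.

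**Figure D1:**
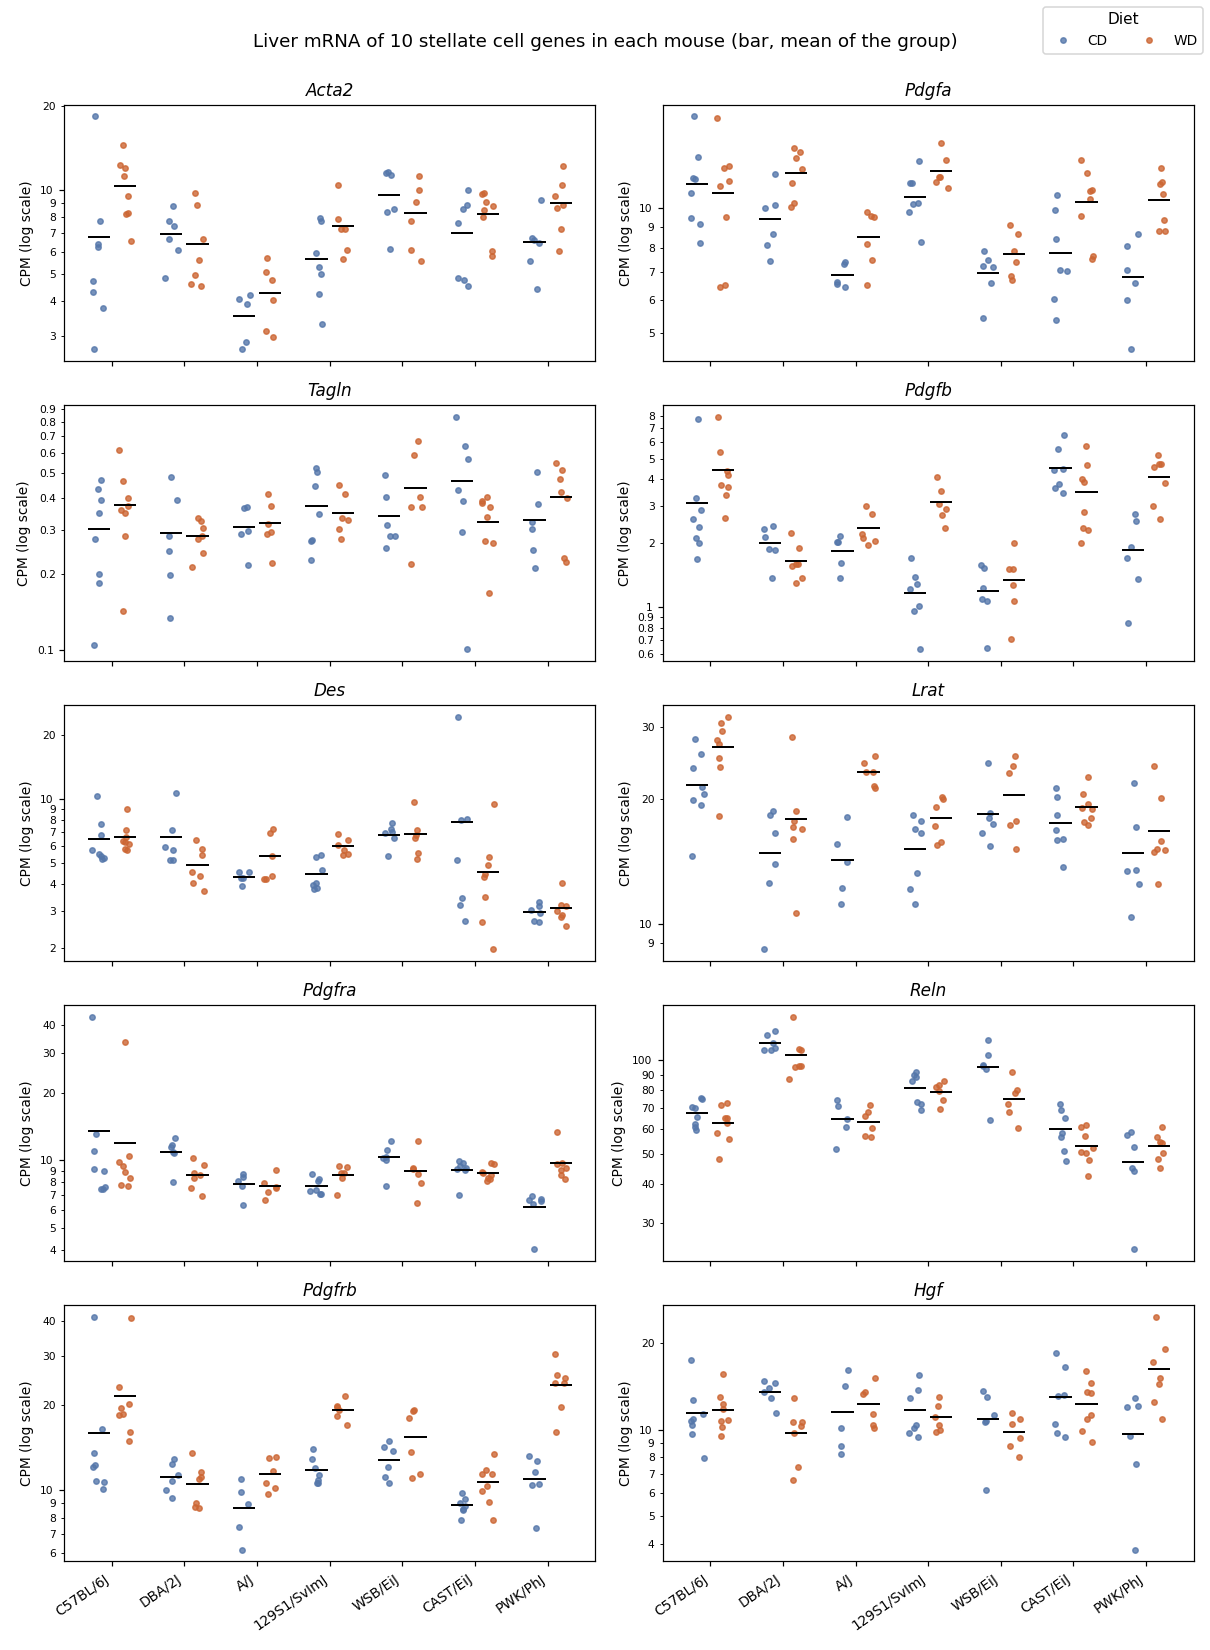
Level of each gene in each of the 93 mice, in CPM on a log scale, by strain (x axis) and diet (blue, CD; orange, WD), with a bar at the group mean. Pdgfrb, Pdgfb, and Pdgfra of PWK/PhJ lay higher on WD, Reln followed strain more than diet, and 2 C57BL/6J mice stood above all others in Pdgfra and Pdgfrb.

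The first comparison asked, within each strain, which of the 10 mRNAs differed between WD and CD. Changes are given as log2 fold changes of WD over CD with their SE. PWK/PhJ had the most, with 5 genes higher on WD (Pdgfrb, Pdgfb, Hgf, Pdgfa, and Pdgfra), followed by C57BL/6J with 3 (Acta2, Pdgfb, and Pdgfrb), 129S1/SvImJ with 2 (Pdgfb and Pdgfrb), A/J with 1 (Lrat), and CAST/EiJ with 1 (Pdgfa). None of the 10 was lower on WD in any strain in the limma-voom fit of 19110 genes (threshold, adjusted p of 0.05). Among all genes tested, the share higher on WD was 15.1% for PWK/PhJ, 14.3% for C57BL/6J, 14.5% for 129S1/SvImJ, 4.39% for A/J, 9.77% for CAST/EiJ, 10.2% for DBA/2J, and 4.97% for WSB/EiJ. The share lower on WD was 14.5%, 11.9%, 13.6%, 4.64%, 9.73%, 7.77%, and 3.97% in the same order. A single gene of 10 in A/J and CAST/EiJ and 2 in 129S1/SvImJ are near those shares, and 5 in PWK/PhJ lie above them. The 3 in C57BL/6J lie above by limma-voom, but edgeR called 2, DESeq2 2, and a fit of C57BL/6J alone 0.

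In DBA/2J and WSB/EiJ limma-voom called none of the 10, with 2 and 1 of them at an unadjusted p below 0.05. In DBA/2J edgeR and DESeq2 called none. In WSB/EiJ edgeR called none and DESeq2 called 1, Reln, as lower on WD. In CAST/EiJ edgeR and DESeq2 also called Des lower on WD, with -0.77 and -0.79 on the log2 scale. The median log2 fold change of the 7 activation genes ran from -0.14 in DBA/2J to 0.64 in PWK/PhJ, with 0.35 for C57BL/6J, 0.43 for 129S1/SvImJ, 0.29 for A/J, 0.15 for WSB/EiJ, and -0.04 for CAST/EiJ. The median of all tested genes lay between -0.011 and 0.017 in every strain. That of the 3 quiescence genes ran from -0.14 in DBA/2J to 0.22 in PWK/PhJ.

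**Figure D2:**
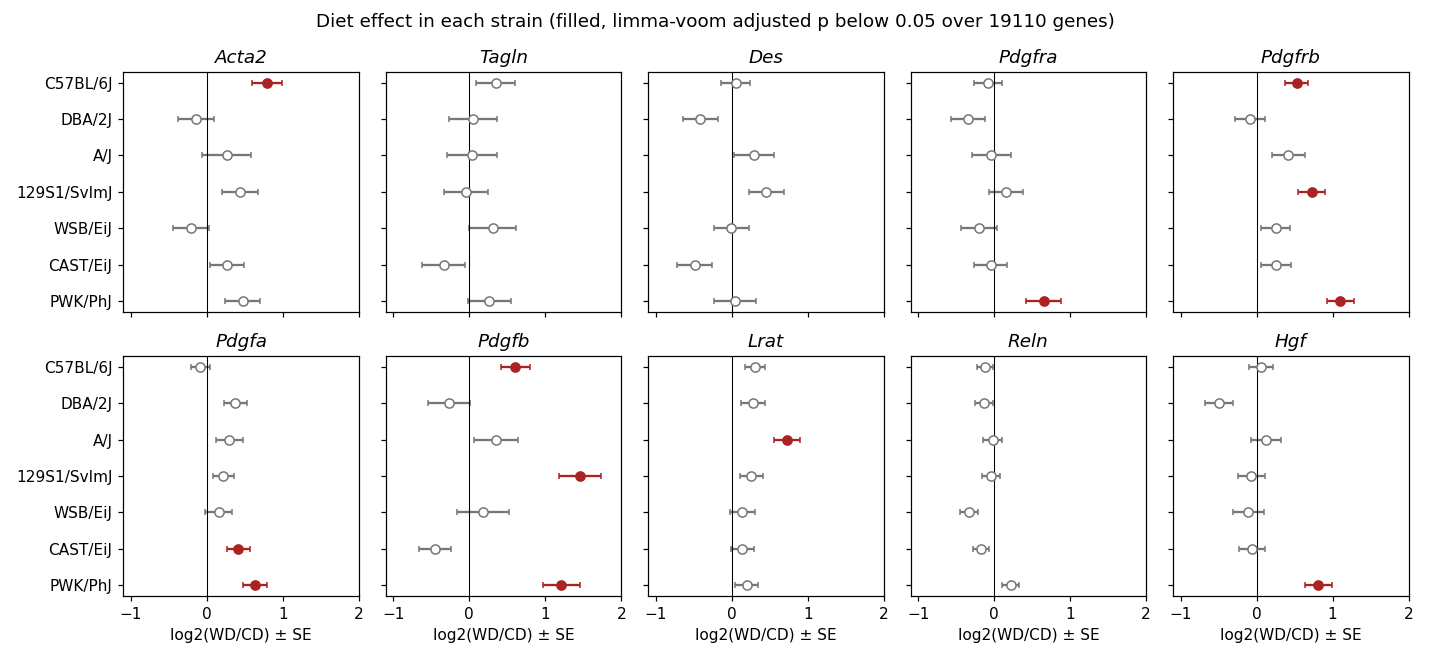
log2 fold change of WD over CD with its SE (x axis) in each strain (y axis), a panel per gene. Filled points passed an adjusted p below 0.05, and all 12 of them lie to the right of 0.

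Pdgfb, the PDGF B chain and the main mitogen of activated stellate cells, rose on WD in 129S1/SvImJ and PWK/PhJ, and in C57BL/6J by limma-voom but not by edgeR or DESeq2. In 129S1/SvImJ the lowest, median, and highest levels were 0.632, 1.22 and 1.70 CPM on CD and 2.35, 2.99 and 4.13 CPM on WD. Every WD mouse was above every CD mouse, and the log2 fold change was 1.45 ± 0.28 (SE, adjusted p = 2.84e-05). In PWK/PhJ the levels were 0.845, 1.81 and 2.75 CPM on CD and 2.60, 4.56 and 5.19 CPM on WD, with 6 of 7 WD mice above all CD mice and a change of 1.21 ± 0.25 (SE, adjusted p = 6.28e-05). Without the fifth CD mouse it was 1.01 (adjusted p = 0.00115). In C57BL/6J they were 1.69, 2.48 and 7.75 CPM on CD and 2.63, 3.98 and 7.92 CPM on WD. Here the highest mouse of each diet was the one rich in portal and biliary markers, and the change was 0.61 ± 0.19 (SE, adjusted p = 0.0127). Without both mice it was 0.71 (adjusted p = 0.00167), and without the WD mouse alone 0.47 (adjusted p = 0.0589), and then it was no longer a call. The call was also lost with edgeR, at 0.52 (adjusted p = 0.0727), with DESeq2, at 0.53 (adjusted p = 0.0603), and in a fit of C57BL/6J alone, at 0.61 (adjusted p = 0.14). In CAST/EiJ, which had the highest Pdgfb on CD (4.55 ± 1.12 CPM, SD, n = 7), WD mice averaged 3.48 ± 1.32 CPM (SD, n = 8), a difference of -0.45 ± 0.21 (SE, adjusted p = 0.122) that did not pass. In DBA/2J, A/J, and WSB/EiJ the log2 fold changes were -0.26, 0.35, and 0.18, and none passed.

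Pdgfa, the A chain, rose on WD in PWK/PhJ and CAST/EiJ. In PWK/PhJ all 7 WD mice lay above all 6 CD mice, with 4.58, 6.85 and 8.66 CPM on CD and 8.79, 10.8 and 12.5 CPM on WD as the lowest, median, and highest, and the change was 0.64 ± 0.16 (SE, adjusted p = 9.56e-04). In CAST/EiJ, with 5.39, 7.08 and 10.7 CPM on CD and 7.52, 10.8 and 13.1 CPM on WD, the groups overlapped and the change was 0.41 ± 0.15 (SE, adjusted p = 0.0436). With cohort within strain as a covariate the CAST/EiJ change was 0.32 (adjusted p = 0.129), and without the sixth CD mouse 0.40 (adjusted p = 0.0831), so neither kept the call. In C57BL/6J the 2 cohorts went opposite ways, with WD minus CD of -0.68 in one and 0.34 in the other on the log2 scale, and the whole strain gave -0.09 ± 0.13 (SE, adjusted p = 0.664). DBA/2J, with 0.37 ± 0.15 (SE, adjusted p = 0.0678), stayed short of the threshold, and A/J, 129S1/SvImJ, and WSB/EiJ gave 0.29, 0.22, and 0.15.

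Pdgfrb, the receptor through which PDGF-B drives stellate cells, lies at chr18:61045150-61085061 and rose in PWK/PhJ, 129S1/SvImJ, and C57BL/6J. In PWK/PhJ it had 7.33, 11.1 and 13.2 CPM on CD and 16.1, 24.1 and 30.5 CPM on WD as the lowest, median, and highest levels. The diets did not overlap, and the change of 1.10 ± 0.18 (SE, adjusted p = 6.44e-07) was 1 of the 2 largest of this strain among the 10 genes, beside that of Pdgfb. Without the fifth CD mouse it was 0.99 (adjusted p = 1.60e-05). In 129S1/SvImJ it had 10.6, 11.3 and 14.0 CPM on CD and 17.0, 19.6 and 21.6 CPM on WD, again without overlap, and changed by 0.72 ± 0.18 (SE, adjusted p = 9.76e-04). In C57BL/6J the levels were 10.1, 12.2 and 41.2 CPM on CD and 15.0, 19.1 and 40.8 CPM on WD, and the change was 0.53 ± 0.15 (SE, adjusted p = 0.00523). Without the second CD mouse (41.2 CPM) and the third WD mouse (40.8 CPM) it was 0.63 (adjusted p = 1.49e-05). A fit of C57BL/6J alone gave 0.52 with an adjusted p of 0.183 and did not keep the call. In A/J, CAST/EiJ, WSB/EiJ, and DBA/2J the log2 fold changes were 0.42, 0.26, 0.25, and -0.09, and none passed.

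Pdgfra, which binds A and B chains and is carried by quiescent stellate cells and portal fibroblasts, passed in PWK/PhJ alone. There the CD mice had 4.01, 6.64 and 6.96 CPM and the WD mice 8.28, 9.24 and 13.4 CPM, and the diets did not overlap. The change was 0.65 ± 0.23 (SE, adjusted p = 0.0266), and without the fifth CD mouse, the lowest at 4.01 CPM, it was 0.53 (adjusted p = 0.0994), no longer a call. In C57BL/6J 2 mice decided the value. The second CD mouse had 43.6 CPM and the third WD mouse 33.6 CPM, against medians of 9.08 and 9.13 CPM. With both mice the change was -0.08 ± 0.18 (SE, adjusted p = 0.796). It turned to 0.22 without the CD mouse, was -0.34 without the WD mouse, and was -0.03 without both, none of them a call. In the other 5 strains the log2 fold change lay between -0.34 (DBA/2J) and 0.16 (129S1/SvImJ).

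**Figure D3:**
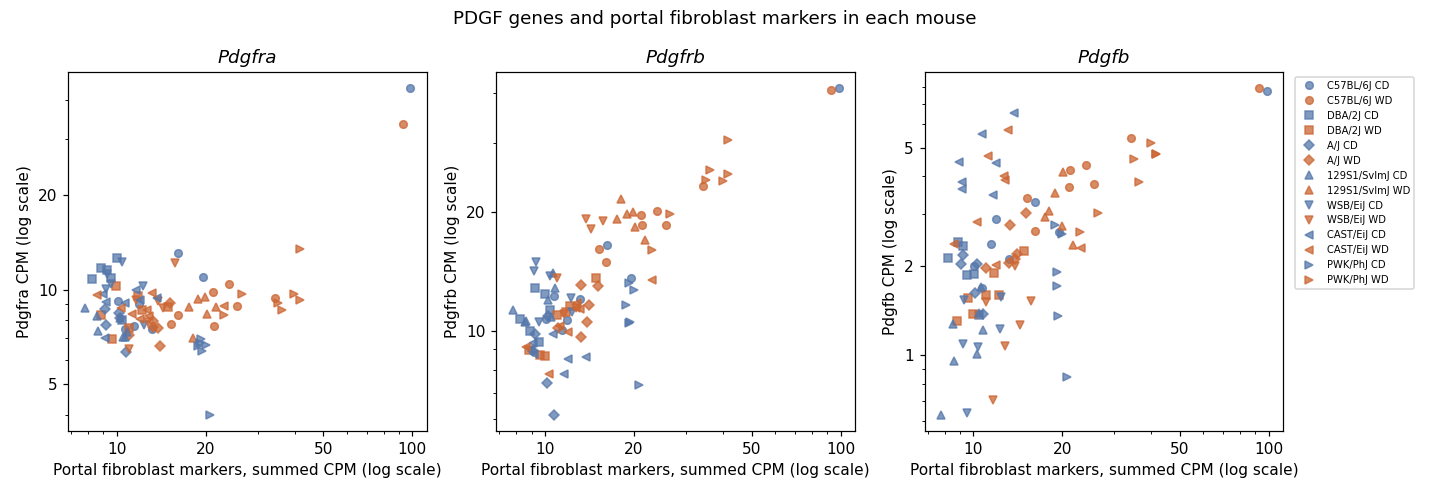
Pdgfra, Pdgfrb, and Pdgfb (y axes, CPM, log scale) against the summed level of 8 portal fibroblast markers (x axis, CPM, log scale) in each mouse, with a symbol per strain and a colour per diet. The 2 C57BL/6J mice with 98.5 and 92.8 CPM of these markers stand apart at the upper right, and the other 91 mice lie at or below 41.6 CPM.

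The portal fibroblast markers were also compared between the diets. Their summed level was 18.8 to 20.7 CPM on CD and 23.0 to 41.6 CPM on WD in PWK/PhJ, and 7.78 to 10.8 and 17.5 to 21.7 CPM in 129S1/SvImJ. In A/J, where no PDGF gene was called, the sums did not overlap either, with medians of 10.1 CPM on CD and 13.5 CPM on WD and 1 of 8 called. Of the 8 markers, 5 were called higher on WD for PWK/PhJ, 6 for 129S1/SvImJ, and 5 for C57BL/6J. Of 12 macrophage markers, a cell that also makes PDGF-B, 8, 9, and 7 were higher, with sums of 45.4 to 323 against 326 to 465 CPM in PWK/PhJ and 201 to 341 against 455 to 638 CPM in 129S1/SvImJ. By edgeR the counts in PWK/PhJ and C57BL/6J were 3 and 3 portal fibroblast markers, and 4 macrophage markers in C57BL/6J. Platelet and megakaryocyte markers, with 0 of 4 tested called in PWK/PhJ and 1 in 129S1/SvImJ, summed to at most 7.62 CPM in any mouse. The part of these cells in the PDGF results was not tested.

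Among the contractile genes, Acta2 rose on WD in C57BL/6J. Its lowest, median, and highest levels there were 2.71, 5.50 and 18.3 CPM on CD and 6.58, 10.3 and 14.5 CPM on WD, and the change was 0.79 ± 0.20 (SE, adjusted p = 0.00153). The highest CD value belonged to the second CD mouse, the next being 7.75 CPM, and without that mouse and the third WD mouse the change was 0.98 (adjusted p = 4.22e-05). Both cohorts showed the direction. A fit of C57BL/6J alone gave 0.78 (adjusted p = 0.0701) and lost the call. Vascular smooth muscle markers summed to 11.9 to 28.0 CPM on CD and 23.3 to 30.7 CPM on WD in this strain, with 2 of 9 called higher on WD, and their part in the Acta2 result was not tested. In PWK/PhJ Acta2 gave 0.47 ± 0.23 (SE, adjusted p = 0.112) and in 129S1/SvImJ 0.43 ± 0.24 (SE, adjusted p = 0.178). Sample quality weights called both, with 0.60 (adjusted p = 0.00752) and 0.43 (adjusted p = 0.0408), and a fit of PWK/PhJ alone called it there with 0.48 (adjusted p = 0.0391). In WSB/EiJ, the strain with the highest Acta2 on CD (9.59 ± 2.23 CPM, SD, n = 6), WD mice averaged 8.30 ± 2.22 CPM (SD, n = 6).

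Des and Tagln did not pass in any strain by limma-voom. Des in 129S1/SvImJ had 3.78, 4.06 and 5.44 CPM on CD and 5.49, 5.90 and 6.84 CPM on WD. These diets did not overlap, yet the change of 0.45 ± 0.23 (SE, adjusted p = 0.137) missed the threshold in the fit of all strains, and a fit of 129S1/SvImJ alone gave 0.47 (adjusted p = 0.00121). Des varied most in CAST/EiJ, with a median of 5.17 and a highest level of 24.2 CPM on CD, where the highest mouse was the one with most smooth muscle marker mRNA. The CAST/EiJ change was -0.49 ± 0.23 (SE, adjusted p = 0.132), and -0.15 without that mouse (adjusted p = 0.711). Tagln stayed between 0.101 and 0.838 CPM in all 93 mice, with log2 fold changes from -0.34 in CAST/EiJ to 0.35 in C57BL/6J.

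Of the quiescence genes, Lrat was higher on WD in A/J. The 5 CD mice had 15.6, 12.2, 18.2, 14.1, and 11.2 CPM, and the 6 WD mice 21.4, 25.5, 23.3, 24.5, 23.3, and 21.6 CPM. All 6 WD mice were above all 5 CD mice, and the change was 0.72 ± 0.17 (SE, adjusted p = 0.00242). In C57BL/6J, where Lrat was highest on both diets (21.7 ± 4.17 CPM, SD, n = 8 on CD and 26.8 ± 4.31 CPM (SD, n = 8) on WD), the change was 0.31 ± 0.13 (SE, adjusted p = 0.0677) with all mice and 0.37 (adjusted p = 0.0331) without the 2 mice rich in portal markers, which turned it into a call. In the other 5 strains Lrat gave log2 fold changes between 0.14 (CAST/EiJ) and 0.28 (DBA/2J), each above 0 and none past the threshold.

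Hgf, a growth factor for hepatocytes, rose on WD in PWK/PhJ, from 3.82, 10.7 and 12.9 CPM on CD to 10.8, 15.2 and 24.7 CPM on WD as the lowest, median, and highest. Of 7 WD mice, 5 were above all CD mice, and the change was 0.81 ± 0.18 (SE, adjusted p = 2.37e-04). Without the fifth CD mouse, at 3.82 CPM, it was 0.57 (adjusted p = 0.00763). In DBA/2J the values ran from 11.4, 13.7 and 14.8 CPM on CD and 6.69, 10.3 and 12.9 CPM on WD, with 6 of 7 WD mice below all CD mice. That change, -0.49 ± 0.18 (SE, adjusted p = 0.0512), just missed the threshold, and 4 of the alternatives (cohort, RIN, a fit of DBA/2J alone, and sample quality weights) called it. RIN, the RNA integrity number, was between 7 and 9.7. Reln did not pass in any strain by limma-voom. Its largest difference was in WSB/EiJ, with 64.1, 96.2 and 116 CPM on CD and 60.4, 75.3 and 91.9 CPM on WD and a log2 fold change of -0.33 ± 0.12 (SE, adjusted p = 0.0768).

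Averaged over the 7 strains with equal weight, WD raised 5 of the 10 mRNAs, against 27.1% of all genes tested that were higher and 24.5% that were lower. Pdgfrb rose by 0.46 ± 0.07 (SE, adjusted p = 7.55e-08) and Pdgfb by 0.44 ± 0.10 (SE, adjusted p = 1.49e-04). Pdgfa rose by 0.29 ± 0.06 (SE, adjusted p = 2.77e-05), Lrat by 0.29 ± 0.06 (SE, adjusted p = 1.65e-05), and Acta2 by 0.27 ± 0.09 (SE, adjusted p = 0.0118). These values were log2 fold changes with 45 mice on CD and 48 on WD. Reln gave -0.09 ± 0.04 (SE, adjusted p = 0.0965), and Tagln, Hgf, Pdgfra, and Des lay between -0.01 and 0.09. Lrat, grouped as a quiescence gene, rose as the 4 activation genes did.

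Whether the diet effect itself differed between strains was tested with an F test over the 7 contrasts. It passed for Pdgfb (adjusted p = 5.05e-06), Hgf (adjusted p = 0.00222), and Pdgfrb (adjusted p = 0.003), 3 of 10, against 37.5% of all genes tested. Pdgfa (0.063), Acta2 (0.0719), and Des (0.0777) had adjusted p just above the threshold. Without the 2 C57BL/6J mice rich in portal markers 6 genes passed, and the added 3 were Pdgfra (adjusted p = 2.35e-05), Acta2 (0.00603), and Pdgfa (0.0294).

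Set against the mean of the other 6 strains, PWK/PhJ had the most genes called, with a more positive diet effect for 5 of the 10 against 16.3% of all genes that differed either way. The difference was 0.90 ± 0.20 (SE, adjusted p = 5.30e-04) for Hgf, 0.90 ± 0.27 (SE, adjusted p = 0.014) for Pdgfb, 0.76 ± 0.19 (SE, adjusted p = 0.00358) for Pdgfrb, 0.74 ± 0.25 (SE, adjusted p = 0.0311) for Pdgfra, and 0.35 ± 0.13 (SE, adjusted p = 0.0439) for Reln, all on the log2 scale. Without the fifth PWK/PhJ mouse on CD 2 genes were called. The diet effect on Pdgfb exceeded that of the other strains in 129S1/SvImJ by 1.18 ± 0.30 (SE, adjusted p = 0.00804) and lay under it in CAST/EiJ, with a difference of -1.04 ± 0.24 (SE, adjusted p = 0.00117). In DBA/2J the difference was -0.62 ± 0.20 (SE, adjusted p = 0.0398) for Hgf and -0.64 ± 0.21 (SE, adjusted p = 0.0442) for Pdgfrb. The shares of all genes that differed were 6.28% for 129S1/SvImJ, 14.5% for CAST/EiJ, and 7.77% for DBA/2J. In C57BL/6J, A/J, and WSB/EiJ, with 4.69%, 0.466%, and 0.947% of all genes, limma-voom and edgeR called none of the 10, and 2, 1, and 2 of them had an unadjusted p below 0.05 in limma-voom.

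Levels on CD differed between strains for 8 of the 10 genes and on WD for 8 of the 10, against 93.7% and 93.9% of all genes tested. Tagln passed on neither diet (adjusted p = 0.481 on CD and 0.555 on WD). Hgf did not pass on CD (0.0818) but did on WD (0.00179), and Pdgfra passed on CD (0.00278) but not on WD (0.433). Strain took 73.1% of the sum of squares of log2 CPM for Reln, the highest share of the 10, 47.5% for Pdgfb, and 5.14% for Hgf, the lowest. Diet after strain took 18.8% for Pdgfrb, the highest, followed by Lrat (14.2%) and Pdgfa (12.8%). The share of strain-specific diet effects was highest for Hgf (23.8%) and Pdgfb (17.5%).

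Reln on CD was highest in DBA/2J with 114 ± 6.81 CPM (SD, n = 6). WSB/EiJ followed with 95.1 ± 17.2 CPM and 129S1/SvImJ with 81.6 ± 9.52 CPM. C57BL/6J (67.5 ± 6.20 CPM) and A/J (64.6 ± 8.92 CPM) were lower, CAST/EiJ had a median of 58.2 CPM, and PWK/PhJ, with 47.0 ± 12.6 CPM, was lowest. On WD DBA/2J stayed highest (104 ± 16.8 CPM, SD, n = 7), and PWK/PhJ (52.8 ± 5.48 CPM) and CAST/EiJ (53.0 ± 6.63 CPM) were lowest. Des was lowest in PWK/PhJ on both diets, with 2.95 ± 0.245 CPM (SD, n = 6) on CD and 3.08 ± 0.481 CPM (SD, n = 7) on WD, and Acta2 was lowest in A/J on both, with 3.55 ± 0.712 CPM (SD, n = 5) and 4.29 ± 1.10 CPM (SD, n = 6). For Pdgfb on CD, CAST/EiJ was highest and 129S1/SvImJ (1.17 ± 0.342 CPM) and WSB/EiJ (1.19 ± 0.345 CPM) were lowest. Strains that were neighbours in the order of a gene's means were compared. The order was taken from the same values, so these pairs are the ones with the closest means. Of 60 such pairs per diet, two-sided exact permutation tests left 0 at an adjusted p below 0.05 (lowest adjusted p = 0.0699 on each diet), with 8 on CD and 7 on WD at an unadjusted p below 0.05. The lowest exact p, 0.00117, is the smallest that 7 against 6 mice can give, so a pair of these sizes could not pass on its own even when its mice did not overlap, and the 0 says little of such pairs.

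After the 14 group means were taken off, some of the genes still varied together between mice of 1 group. Of 45 pairs, 21 correlated over the 93 mice (Pearson, permutation within groups, Benjamini-Hochberg over 45), all with a positive r, and 14 of these 21 also did by Spearman. The share of all gene pairs that would pass this test was not taken. All values of a mouse share its library and its mix of cells, so the count alone does not set these genes apart from others. Among the 21 pairs of activation genes 12 passed, among the 3 of quiescence genes 3, and among the 21 mixed pairs 6. Reln and Hgf were the closest pair (r = 0.78, rho = 0.72), and Hgf also followed Pdgfra (r = 0.56, rho = 0.59). Pdgfrb followed Pdgfb (r = 0.71, rho = 0.65), Pdgfra (r = 0.74, rho = 0.44), and Acta2 (r = 0.60, rho = 0.45). For these 5 pairs the permutation p of r was 1e-05, the smallest that 100000 resamples can give, with an adjusted p of 5.62e-05, and the adjusted p of rho was at most 5.50e-04.

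The Pdgfra and Pdgfrb pair leaned on few mice. Without the 2 mice farthest from the median of Pdgfra r fell to 0.50, whereas that of Reln and Hgf was 0.70 and that of Pdgfrb and Pdgfb 0.61 without the 2 farthest in Reln and in Pdgfrb. With the 2 C57BL/6J mice and the sixth CAST/EiJ mouse on CD left out, 16 pairs passed, 15 of them among the 21, and Pdgfra with Pdgfrb had r = 0.44. After means of strain, diet, and cohort were taken off, 15 pairs passed, all among the 21, with r = 0.77 for Reln and Hgf and 0.70 for Pdgfrb and Pdgfb. Acta2 had r = -0.05 with Hgf and -0.16 with Reln, and neither passed. Tagln passed with no other gene, its highest r being 0.21.

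**Figure D4:**
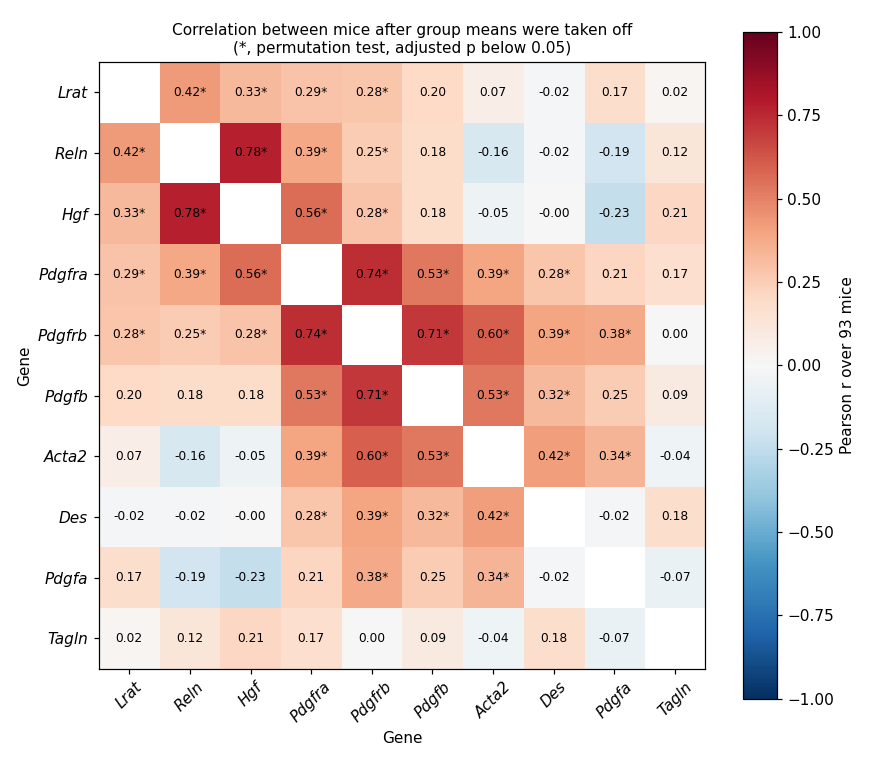
Pearson r of each pair of genes (both axes) over 93 mice after the means of the 14 groups were taken off, with an asterisk at an adjusted p below 0.05. The highest r is 0.78 for Reln and Hgf. That of Pdgfra and Pdgfrb is 0.74, but 0.50 without the 2 mice farthest from the median of Pdgfra, and that of Acta2 and Pdgfra is 0.39, with a rho of 0.09.

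The 3 genes outside the 10 whose residuals were most like each member's, by Pearson r over the same 93 mice, are given as a description, since all values of a mouse share its library. For Pdgfrb they were Col5a1 (0.85), Col6a3 (0.85), and Sparc (0.84), 2 collagen chains and a matrix glycoprotein. For Acta2 they were Myl9 (0.78), Myh11 (0.75), and Mgp (0.73), of which Myl9 and Myh11 are smooth muscle myosin genes. For Des they were Pygm (0.82), Tpm2 (0.79), and Slc25a4 (0.75), and for Pdgfra Igfbp7 (0.82), Dkk3 (0.81), and Dcn (0.81). For Hgf they were Abcc9 (0.77), Itga1 (0.76), and Smchd1 (0.69), and for Reln Bmp5 (0.68), Tln2 (0.68), and Phactr2 (0.67). Lrat had Rarb, a retinoic acid receptor, first (0.57), then Lims1 (0.53) and Acsl3 (0.53). For Pdgfb they were Ier5 (0.70), Clec7a (0.70), and Emilin1 (0.68), where Clec7a is a receptor of myeloid cells, for Pdgfa Prss8 (0.71), Myl12b (0.67), and Maged2 (0.66), and for Tagln Pik3r1 (0.44), Ddx3x (0.44), and Fam135a (0.43). Without the 3 mice named above, r of Pdgfra was 0.51 with Igfbp7 and 0.73 with Dcn, and that of Des with Pygm was 0.73.

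Other genes of the same pathways were read from lists fixed with earlier results known, as counts beside the shares of all genes given above. Of 12 PDGF ligands, co-receptor, and signal genes, 7 were higher and 0 lower on WD in PWK/PhJ, with a median log2 fold change of 0.22, and at most 2 were higher in any other strain. Pdgfc and Pdgfd, the other 2 ligands, rose in PWK/PhJ by 0.88 ± 0.23 (SE, adjusted p = 0.0022) and 1.35 ± 0.27 (SE, adjusted p = 5.04e-05), and the co-receptor Nrp1 by 0.61 ± 0.19 (SE, adjusted p = 0.0101). None of these 3 passed in another strain. Their F tests of unequal diet effects gave adjusted p of 0.0308 for Pdgfc, 0.0195 for Pdgfd, and 0.184 for Nrp1.

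Of 11 HGF receptor and processing genes, 5 higher and 4 lower passed in PWK/PhJ, 2 higher and 3 lower in 129S1/SvImJ, and 3 higher and 2 lower in C57BL/6J. Hgfac, the protease that activates HGF, was lower on WD in the mean of 7 strains, with -0.46 ± 0.04 (SE, adjusted p = 6.99e-17). Plau, the urokinase that can also cleave HGF, rose in PWK/PhJ by 2.08 ± 0.30 (SE, adjusted p = 4.19e-08), by 1.46 ± 0.30 (SE, adjusted p = 9.32e-05) in 129S1/SvImJ, and by 1.13 ± 0.20 (SE, adjusted p = 8.54e-06) in C57BL/6J. Without the 2 C57BL/6J mice rich in portal markers the fit called 4 genes of the list higher in 129S1/SvImJ. Met, the HGF receptor, rose in C57BL/6J by 0.31 ± 0.11 (SE, adjusted p = 0.0347). In DBA/2J, where the Hgf difference did not pass, Met gave 0.03 ± 0.13 (SE, adjusted p = 0.926).

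Of 13 genes of retinoid storage and use 12 were tested, and 2 higher and 3 lower passed in PWK/PhJ and 1 higher and 1 lower in A/J. Rarb, the receptor whose residuals were most like those of Lrat, rose in PWK/PhJ by 0.78 ± 0.23 (SE, adjusted p = 0.0072), and Cyp26a1, which breaks down retinoic acid, rose in the mean of 7 strains by 0.90 ± 0.23 (SE, adjusted p = 5.14e-04).

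Of 9 reelin receptor and signal genes, 2 higher and 0 lower passed in PWK/PhJ, 0 higher and 3 lower in DBA/2J, and 0 higher and 3 lower in CAST/EiJ. Dab1, an adaptor of reelin signalling, fell on WD in DBA/2J (-1.84 ± 0.26, SE, adjusted p = 4.57e-08) and rose in PWK/PhJ (0.93 ± 0.21, SE, adjusted p = 3.30e-04). The diet effects on Dab1 differed between strains (F test, adjusted p = 1.90e-04). The reelin receptor Vldlr rose in A/J (1.17 ± 0.33, SE, adjusted p = 0.0122) and C57BL/6J (0.68 ± 0.26, SE, adjusted p = 0.0424), and Lrp8, at a mean of 0.153 CPM on CD, in 129S1/SvImJ (1.50 ± 0.39, SE, adjusted p = 0.00202).

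Of 16 contractile and serum response factor target genes 15 were tested, and 6 were higher on WD in C57BL/6J, 4 in PWK/PhJ, and 2 in 129S1/SvImJ, with medians of 0.28, 0.25, and 0.25. Some of these genes also stand in the list of vascular smooth muscle markers. In C57BL/6J the smooth muscle myosin Myh11 rose by 0.52 ± 0.19 (SE, adjusted p = 0.033), whereas Cnn1 (0.64 ± 0.35, SE, adjusted p = 0.182) and Myl9 (0.15 ± 0.15, SE, adjusted p = 0.534) did not pass. In PWK/PhJ Myh11 gave -0.13 ± 0.25 (SE, adjusted p = 0.76).

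Of 19 fibrillar matrix and fibrosis genes, which activated stellate cells and portal fibroblasts express, 16 were higher on WD in PWK/PhJ, 14 in C57BL/6J, 12 in 129S1/SvImJ, 2 in A/J, 1 in CAST/EiJ, and none in DBA/2J and WSB/EiJ. By edgeR the counts were 5 for A/J, 4 for CAST/EiJ, and 2 for WSB/EiJ, and without the 2 C57BL/6J mice rich in portal markers limma-voom called 5 for A/J and 4 for WSB/EiJ. The medians were 2.11, 0.81, and 0.78 in the first 3 strains, and that of PWK/PhJ was above the change of each of the 10 genes there. Col1a1 rose by 4.01 ± 0.54 (SE, adjusted p = 5.23e-09), Col3a1 by 3.32 ± 0.34 (SE, adjusted p = 1.01e-12), and Timp1, an inhibitor of matrix proteases, by 4.44 ± 0.56 (SE, adjusted p = 1.07e-09) in PWK/PhJ.

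The list of other stellate cell markers held calls higher and lower on WD. Among all genes tested, 15.1% were higher and 14.5% lower in PWK/PhJ, and 14.3% and 11.9% in C57BL/6J. The shares were 14.5% and 13.6% in 129S1/SvImJ, and 10.2% and 7.77% in DBA/2J. Of 14, 3 higher and 2 lower passed in PWK/PhJ, 1 higher and 2 lower in C57BL/6J, 1 higher and 2 lower in 129S1/SvImJ, and 0 higher and 2 lower in DBA/2J, with medians of 0.08, -0.06, -0.08, and -0.23. Without the 2 C57BL/6J mice rich in portal markers 3 were higher in 129S1/SvImJ and 2 in C57BL/6J. Their summed level in PWK/PhJ was 263 to 443 CPM on CD (median 417 CPM) and 327 to 411 CPM on WD (median 351 CPM). In 129S1/SvImJ it was 341 to 401 CPM on CD (median 369 CPM) and 300.0 to 338 CPM on WD (median 325 CPM). Colec11, a collectin of stellate cells, gave 0.19 ± 0.10 (SE, adjusted p = 0.125) in PWK/PhJ, and Hand2, a stellate cell transcription factor, -0.09 ± 0.20 (SE, adjusted p = 0.801). Ecm1, a secreted matrix protein, was lower on WD in PWK/PhJ, with -0.48 ± 0.13 (SE, adjusted p = 0.00389).

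Of the other marker lists, hepatocyte markers held most calls lower on WD. Of 10, the number called lower ran from 2 in CAST/EiJ to 6 in both PWK/PhJ and 129S1/SvImJ. These counts did not follow the size of the fall in their summed level, whose median was lower on WD in every strain. It was 139813 CPM on CD and 90250 CPM on WD in CAST/EiJ, and 140691 and 88376 CPM in PWK/PhJ. Endothelial markers (11) had 4 higher and 3 lower in C57BL/6J and 2 higher and 1 lower in PWK/PhJ. Of the 6 cholangiocyte markers 4 were higher in 129S1/SvImJ without the 2 C57BL/6J mice rich in them and 0 with all mice. Of the same markers 4 were higher in PWK/PhJ and none in C57BL/6J, of 5 mesothelial markers 1 in PWK/PhJ, and of 6 lymphocyte markers 3 in 129S1/SvImJ and none in PWK/PhJ. No marker of any list was at 0 in all mice.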

How the data were processed

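Whole-liver mRNA of 93 mice was sequenced on a BGISEQ-500 from mRNA-Seq libraries. The authors mapped reads with STAR 2.7.1a, as their processing notes name it, to the C57BL/6J genome, and deposited 1 table of raw counts per gene, the only unit used here. Strand use and the annotation release are not given in the sources used here. Symbols, exon lengths, and overlapping genes came from GENCODE M21 (GRCm38), and 53465 genes were listed. Summary lines of unmapped, multimapped, ambiguous, and unassigned reads were left out of library sizes.

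Counts were filtered with filterByExpr (minimum count of 10, 19110 genes), TMM-scaled (factors 0.810 to 1.27), and fitted with limma-voom (limma 3.58.1, edgeR 4.0.16, R 4.3.3) as 14 groups of strain and diet in 1 fit, with Benjamini-Hochberg adjustment over all 19110 genes of a contrast. Strain differences and unequal diet effects were F tests of that fit, and 1 strain was set against the mean of the other 6. CPM used TMM-scaled library sizes, and log2 CPM had a prior count of 2. Neighbouring strains were compared by two-sided exact permutation tests and pairs of genes by permutation within groups. Reads on genes numbered 40020424 to 49894856 per mouse, with RIN 7 to 9.7, and the SEs rest on the spread between mice of a group. The fit was tested on simulated counts with the same mean in every strain and 200 genes changed 2-fold on WD in PWK/PhJ. It recovered 138 of them (69%) with 2 false calls, and the F test of unequal diet effects 113 with 9 false calls. A change that did not pass can therefore be real.

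The 10 genes, the gene lists, and the markers were chosen with earlier results of these data known. Text names all 10, the first 3 genes of each related list and of the other stellate markers, and the 3 genes most like each member. A gene of these lists is not reported here. Mice were grouped by the strain and diet in the labels, and cohort is as the labels give it. Mice are separate animals of inbred strains. The alternatives were edgeR, DESeq2 1.42.0, upper-quartile scaling, genes of any count, cohort or RIN as covariates, separate fits per strain, sample quality weights, and leaving out each A/J mouse. Leaving out 4 other mice was chosen after seeing the data.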

Additional observations from a re-analysis of the deposited data

Results flagged for a closer look

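In 140 groups of mice (10 genes, 14 groups), the gap of the highest or lowest mouse to the next passed Dixon's 95% critical value in 12, where chance alone gives about 1 in 20 groups. C57BL/6J CD replicate 2 and WD replicate 3, the mice rich in portal fibroblast and cholangiocyte markers, made up 5 of the 12. They had 43.6 and 33.6 CPM of Pdgfra and 41.2 and 40.8 CPM of Pdgfrb, and the CD mouse had 7.75 CPM of Pdgfb. Their endothelial marker sums were 327 and 334 CPM, against 412 to 486 CPM in the other 14 C57BL/6J mice.

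PWK/PhJ CD replicate 5 was low in Pdgfra (4.01 CPM) and Reln (24.6 CPM), and had the lowest macrophage marker sum of the 93 mice, 45.4 CPM. WSB/EiJ CD replicate 6 was low in Reln (64.1 CPM) and in Hgf (6.18 CPM). Its RIN was 7.2, against 8.9 to 9.7 in the other 5 mice of that group, and the part of RIN in these values was not tested. The remaining 3 were Pdgfra values, 8.02 CPM in DBA/2J CD replicate 4, 7.03 CPM in CAST/EiJ CD replicate 2, and 13.4 CPM in PWK/PhJ WD replicate 2. The diet effect differed between the 7 strains by the limma-voom F test for Pdgfb (adjusted p = 5.05e-06), Hgf (adjusted p = 0.00222), and Pdgfrb (adjusted p = 0.00300).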

How the results depend on the processing

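The number of the 10 genes called on WD against CD moved by over 1.5 times as follows, and the cause was not tested. In C57BL/6J it went from 3 to 0 with separate fits, and in 129S1/SvImJ from 2 to 4 with separate fits and 4 with sample quality weights. In WSB/EiJ it went from 0 to 1 with DESeq2 and 1 with quality weights. In DBA/2J it went from 0 to 1 with cohort, 1 with RIN, and 1 with quality weights, and to 3 with separate fits. In CAST/EiJ it went from 1 to 2 with edgeR and 2 with DESeq2, and to 0 with genes of any count, cohort, RIN, or separate fits. Unequal diet effects passed for 5 genes with cohort and 6 with quality weights in place of 3. Against the other 6 strains, C57BL/6J had 1 gene in place of 0 with upper-quartile scaling, cohort, or quality weights, DBA/2J 0 in place of 2 and PWK/PhJ 3 in place of 5 with genes of any count, 129S1/SvImJ 2 in place of 1 with quality weights, and CAST/EiJ 2 in place of 1 with edgeR. Leaving out mice gave 2 to 4 in C57BL/6J, 0 to 2 in DBA/2J, 0 to 1 in WSB/EiJ, 0 to 1 in CAST/EiJ, 3 to 6 for unequal effects, and, against the other 6, 0 to 2 in C57BL/6J, 1 to 4 in DBA/2J, and 2 to 5 in PWK/PhJ. The pairs that correlated numbered 16 without 3 mice and 15 with cohort means taken off, against 21.

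Directions turned only for values that no fit called. Pdgfra became 0.016 and Pdgfa 0.012 in C57BL/6J with quality weights, and Hgf -0.0075 with cohort. Tagln became -0.045 (edgeR) and -0.042 (DESeq2) in DBA/2J, -0.013 with cohort in A/J, and 0.019 with upper-quartile scaling and 0.0044 with quality weights in 129S1/SvImJ. Reln became 0.0092 with upper-quartile scaling and 0.034 with cohort in A/J and 0.022 with upper-quartile scaling in 129S1/SvImJ. Des became 0.0074 (edgeR), 0.0077 (DESeq2), and 1.04e-06 (RIN) in WSB/EiJ and 0.014 with upper-quartile scaling in the mean of 7 strains, where Pdgfra became -0.0011 (edgeR) and -0.0061 (cohort). Leaving out mice gave -0.013 to 0.16 for Des and -0.34 to 0.22 for Pdgfra in C57BL/6J, -0.070 to 0.15 for Tagln, -0.10 to 0.011 for Pdgfra, and -0.088 to 0.045 for Reln in A/J, and -0.022 to 0.040 for Des and -0.023 to 0.051 for Pdgfra in the mean of 7 strains.

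No paired analysis was possible because the replicate numbers follow only the order of the samples and pair no mice. Tagln, with 4 to 34 counts per mouse, is limited most by depth. Reads were mapped to the C57BL/6J genome for every strain, so strain levels include unequal mapping. Whole-liver levels sum over all cells of the organ.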
